A study of Homo sapiens with 22 samples.

Results

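The FOXA2 binding sites of PC3 cells treated with the LSD1 inhibitor ORY-1001 were set against those of vehicle-treated PC3 cells. A vehicle region was called kept if at least 1 bp of it lay in a region of the ORY-1001 list and lost if not, and an ORY-1001 region that touched no vehicle region was called new. The vehicle list held 24038 regions and the ORY-1001 list 13732, which makes 37770 of the 871377 regions in the 22 lists of the series. Apart from this overlap of positions, no score, sequence or annotation of a region entered the rule.

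PC3 is an established prostate cancer line from a bone metastasis. Both FOXA2 lists came from this line, the first from cells given vehicle and the second from cells given 10 µM ORY-1001 for 4 h, and the sample descriptions name the same anti-FOXA2 antibody from Millipore for both, while the methods of the study name Abcam as its supplier. The other PC3 lists used below were H3K27ac and ATAC-seq from vehicle-treated cells, JUN and FOSL1 from cells with the negative control siRNA (siNC), JUN after FOXA2 knockdown (siFOXA2), and 2 vehicle FOXA2 lists of a later deposit that name no antibody. FOXA2 after the second LSD1 inhibitor C12 (0.5 µM, 4 h) in PC3 and FOXA2 under vehicle or 10 µM ORY-1001 (4 h) in NCI-H660, a neuroendocrine prostate cancer line, are given side by side where stated. PC3 and NCI-H660 are 1 line each, and no list of H3K27ac, ATAC, JUN or FOSL1 from inhibitor-treated cells was analysed here, so every overlap describes the chromatin of cells without the inhibitor. Each arm had 1 list and there was no replicate check, so no p-value is given. The lists held no expression values and the lines were not checked against marker genes.

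FOXA2 is a forkhead transcription factor of endoderm-derived tissues. Forkhead factors of the FOXA family are called pioneer factors because they can bind their DNA motif in closed chromatin and help to open it. LSD1, encoded by KDM1A, is a lysine demethylase that removes methyl groups from histone H3 and from some other proteins, and it works in a complex with the corepressor CoREST and the histone deacetylases HDAC1 and HDAC2. ORY-1001 is an inhibitor of LSD1. JUN and FOSL1 are subunits of AP-1, a dimeric transcription factor that binds enhancers of growth and stress genes. H3K27ac is an acetylated histone mark of active enhancers and promoters, and ATAC-seq marks DNA that a transposase can reach.

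Of the vehicle regions, 8854 were kept (36.8%, interval 36.2 to 37.4%) and 15184 were lost (63.2%). In the ORY-1001 list 8837 regions touched a vehicle region, and 4895 were new (35.6%, 34.8 to 36.5%). These intervals, like all intervals below, are 95% intervals that cover counting error only, because the lists give no read numbers and the depth is unknown. The call rarely rested on a narrow overlap. Only 16 kept regions shared under 50 bp with the treated region, and the median overlap was 297 bp. Of the lost regions 133 had an ORY-1001 region within 500 bp, and the median lost region was 54410 bp away from one. The 16 kept regions just inside the rule had a median score of 97, and the 133 lost regions within 500 bp had a median score of 111.

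The sequences at the centres of the leading kept and the leading lost region are shown because they differ in what the classes turned out to differ in, their base composition. They were read from the GRCh37 genome (the same assembly as hg19) on the plus strand, 250 bases each. Capitals mark the strict forkhead words TGTTTAC and TATTTAC and the AP-1 words TGACTCA and TGAGTCA on either strand. The kept region is the highest-scoring one with ATAC, H3K27ac and JUN outside places found in at least 17 of the 22 lists. It is chr10:33444862-33445491, intergenic and 20928 bp from NRP1, which encodes the semaphorin and VEGF coreceptor neuropilin-1. The lost region, chosen in the same way, is chr10:76308340-76308934 in an intron of ADK, the adenosine kinase gene.
kept, chr10:33445052-33445301: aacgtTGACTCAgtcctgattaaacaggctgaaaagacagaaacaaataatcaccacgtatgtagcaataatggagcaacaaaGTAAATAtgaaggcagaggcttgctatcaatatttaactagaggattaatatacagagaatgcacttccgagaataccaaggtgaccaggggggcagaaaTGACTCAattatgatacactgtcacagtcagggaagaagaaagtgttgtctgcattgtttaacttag
lost, chr10:76308512-76308761: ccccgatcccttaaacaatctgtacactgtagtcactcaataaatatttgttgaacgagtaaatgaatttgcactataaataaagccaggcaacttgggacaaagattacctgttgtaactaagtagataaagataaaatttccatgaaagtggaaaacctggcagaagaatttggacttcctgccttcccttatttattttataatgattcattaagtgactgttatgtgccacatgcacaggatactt

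The kept NRP1 region held 1 forkhead word and 2 AP-1 words, had a GC content of 39% in its central 200 bp, and scored 12604 under vehicle and 2637 under ORY-1001. The lost ADK region held none of these words, had a GC content of 32.5% and scored 2345, and its nearest ORY-1001 region lay 974 bp away. Both were also found in both later FOXA2 lists. The score is taken to be −log10 of the peak caller's q-value times 10, so a higher score means stronger evidence of enrichment and not a linear amount of binding.

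The next kept regions in the same ranking, which leaves out chromosome 8, were a second NRP1 region, in its promoter (score 8091 under vehicle and 8041 under ORY-1001), 2 regions at KAT6B, a histone acetyltransferase gene (5509 and 1136 for the intronic one, 4881 and 2341 for the intergenic one), and a region near NACA2 (4245 and 993). The score was lower under ORY-1001 at each of these, although by little at the NRP1 promoter. The next lost regions lay in introns of ANO10 (score 2247), SLC25A21 (1663) and FER, a tyrosine kinase gene (1659), and 117511 bp from PRKD1 (1654). All 5 leading lost regions were also in both later FOXA2 lists, and their GC contents ran from 30.5 to 35.5%. The 5 leading kept regions were in both later lists too, and their GC contents ran from 33 to 47.5%, so the 2 ranges overlapped. Among the leading new regions were the promoter of KLF5, which encodes a basal epithelial transcription factor (score 380, GC content 69%, 721 bp from a vehicle region, in both later FOXA2 lists), and an intron of LRRC27 (score 374). Other leading new regions lay on chromosome 16 near SHCBP1 (score 416) and IGHV3OR16-17 (score 409). Neither these nor the LRRC27 region was in a later FOXA2 list, and they were found in 11, 8 and 16 lists of the series.

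Kept regions were the strongest and widest of the vehicle list. Their median score was 283 and their median width 363 bp, against 112 and 302 bp for lost regions. New regions had a median score of 35, while ORY-1001 regions that touched a vehicle region had a median of 150. Between the lowest and the highest vehicle score decile the kept share passed through 25.1% in decile 5 and 56% in decile 8, and it rose in every step. In the ORY-1001 list the share of new regions went the other way, from 92.3% in decile 1 to 27.9% in decile 5 and 0.437% (6 regions) in decile 10. A count over classes alone therefore compares strong with weak regions, so differences between classes are also given standardised over the 10 score deciles of the list, each decile with its share of the list as its weight.

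**Figure D1:**
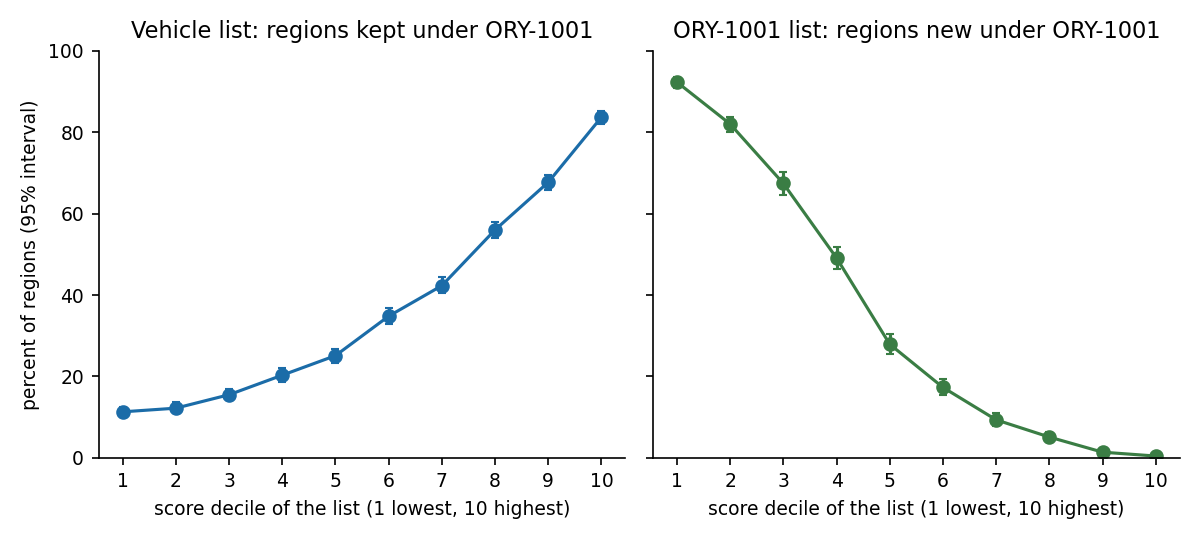
Share of vehicle regions kept (left) and share of ORY-1001 regions that were new (right), in percent, by score decile of the respective list. Points are shares and bars are 95% intervals from counting error. The kept share rises from decile 1 to decile 10, and the new share falls from 92.3 to 0.437%.

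Regions that were kept had mostly lower scores under the inhibitor. Of the 8854 kept regions 6989 (78.9%) scored lower under ORY-1001, and the median log2 ratio of the ORY-1001 score to the vehicle score was −0.66, with quartiles of −1.43 and −0.09. The ratio was much the same with a JUN region (median −0.65, 5718 regions) and without one (−0.68, 3136 regions). Kept regions with H3K27ac had a median of −0.63 and those without it −0.79. The 402 kept regions found in at least 17 of the 22 lists, whatever the factor profiled, moved the other way, with a median of 0.22. Scores depend on read depth as well as on binding, and the depth of the 2 libraries is unknown, so a uniform drop in score and a drop in depth cannot be told apart. Across the 8854 kept regions the Spearman correlation of the 2 scores was 0.61, where both points come from the same 2 libraries.

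Kept regions lay in active, AP-1-bound chromatin more often than lost regions did. H3K27ac was overlapped by 77.4% of kept regions (76.5 to 78.2%) and 47.8% of lost regions (47 to 48.6%). JUN was overlapped by 64.6% (63.6 to 65.6%) and 32.5% (31.8 to 33.2%). Standardised over score deciles the differences were 21 percentage points for H3K27ac (19.5 to 22.5) and 23.4 points for JUN (21.9 to 25). Accessibility differed less, with 95.6% of kept and 85.7% of lost regions in an ATAC region and a standardised difference of 4.31 points (3.34 to 5.27). The JUN difference was present in every decile, from 50.9% of kept against 23% of lost regions in decile 1 to 81.2% against 63.8% in decile 10. The same held for H3K27ac, with 52.7% against 38.4% in decile 1 and 86.5% against 67.3% in decile 10.

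Regions with FOSL1 had the highest kept share of the overlaps examined. FOSL1, the FRA-1 subunit of AP-1, overlapped 1464 kept regions (16.5%) but only 277 lost regions (1.82%), so 84.1% of the vehicle regions with FOSL1 were kept (82.3 to 85.7%). Vehicle regions with a JUN region that was still listed after siFOXA2 were kept in 81.5% (79.8 to 83.1%), against 32.6% of the others. Those with a FOXA2 region in vehicle-treated NCI-H660 cells were kept in 73.6% (71.9 to 75.3%), against 32.2% of the others. At equal score make-up these 3 kept shares were 80.7, 76.4 and 65.8%. Without the places found in at least 17 of the 22 lists, which gave 392 of the 1741 regions with FOSL1, the 3 shares were 79.5, 77.2 and 69.2%, and the median GC content of these regions was 42, 42 and 41%, against 37.5% in the regions without the overlap. Against this, kept and lost regions were found in a later PC3 FOXA2 list about as often before the score was held equal, 91.2% and 94.0%. At equal score make-up the shares were 83.9% and 95.2%. Places found in at least 17 lists were not left out of these shares. The later lists were longer than the vehicle list, with 77822 and 62714 regions. Most lost regions were thus sites that other vehicle FOXA2 ChIPs of the same line had also listed.

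**Figure D2:**
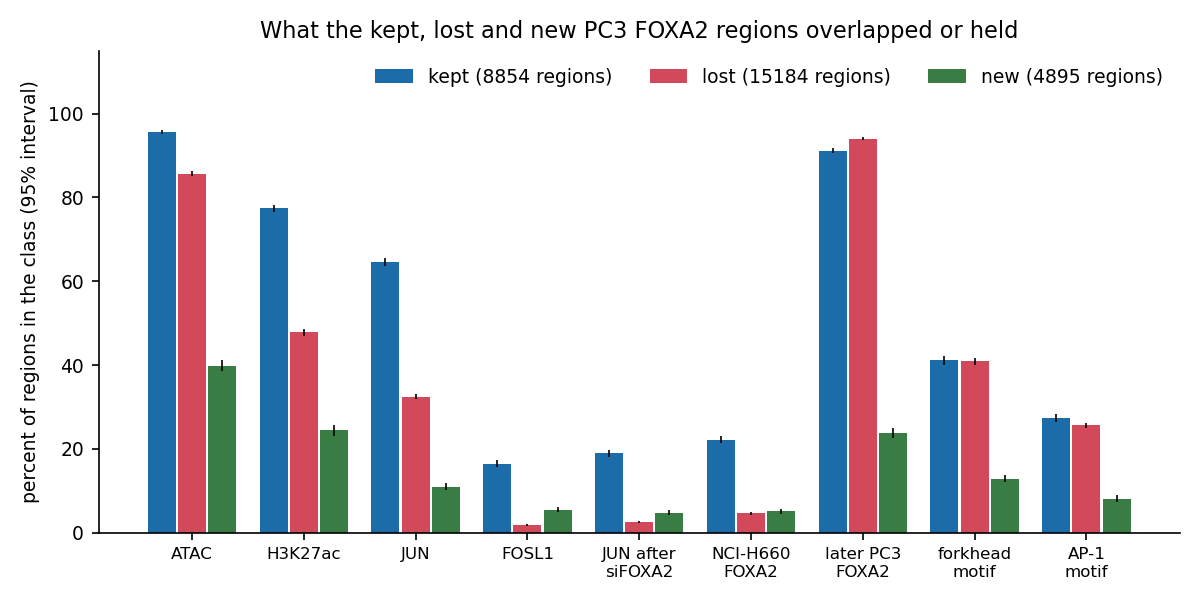
Percent of kept, lost and new regions that overlapped a region of the named list or held a motif within 100 bp of their centre. Bars are shares and lines are 95% intervals from counting error. Kept regions are highest for H3K27ac, JUN and FOSL1, lost regions are close to kept ones for the later FOXA2 lists and the forkhead motif, and new regions are lowest in all sets but FOSL1, JUN after siFOXA2 and NCI-H660 FOXA2, where the lost regions are.

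The kept share differed between combinations of marks. Of the 8277 vehicle regions with ATAC, H3K27ac and JUN together 57.6% were kept (56.6 to 58.7%). With ATAC and H3K27ac but no JUN the share was 36% (5418 regions), with ATAC and JUN but no H3K27ac it was 37.4% (2128 regions), and with ATAC alone it was 16.8% (5652 regions). Of the 1995 regions with none of the 3 it was 9.02% (7.84 to 10.4%). The share did not simply follow the number of marks, since outside ATAC it was 74.5% (65 to 82.1%) of the 98 regions with H3K27ac and JUN, 53% (45 to 60.9%) of the 149 regions with JUN alone and 18.1% of the 321 regions with H3K27ac alone. Among regions with JUN, the kept share went from 36.9% in the lowest of 5 equal groups of JUN scores to 73.7% in the highest. For ATAC scores it went from 19.1% to 66.3%, and for H3K27ac scores from 40.4% to 62.3%. At equal FOXA2 score make-up these ranges narrowed to 37.7 and 56.5% for JUN, 26 and 54% for ATAC and 40.4 and 51.2% for H3K27ac. Clusters of FOXA2 regions also stood apart, since of the 152 vehicle regions with at least 10 other vehicle regions within 50 kb 88.8% were kept (82.8 to 92.9%), against 33.5% of the 7062 regions with none. Of these 152 regions 95 lay in places found in at least 17 lists, and of the other 57 regions 40 were kept (70.2%).

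Base composition also separated the classes. The median GC content of the central 200 bp was 41% in kept, 36% in lost and 47.5% in new regions. Of the 6709 vehicle regions with a GC content under 35% only 762 were kept (11.4%, 10.6 to 12.1%). The kept share was 32.5% at 35 to 40% GC, 55.5% at 40 to 45%, 63.7% at 45 to 50%, 67.6% at 50 to 55% and 64.9% (61.8 to 67.8%) at 55% or more. Equal score make-up changed this little, giving 13.6% in the lowest and 62.5% in the highest GC class. In all 10 score deciles the median GC content of the kept regions was above that of the lost ones, with 43.5% against 37% in decile 1 and 40% against 34% in decile 10. Windows 2 kb to either side of the regions differed less between kept and lost, with medians of 40.4% and 38.5%. Those 2 kb from the new regions had the lowest median of the 3, 36.8%, so a new region was on the whole a GC-rich stretch in AT-rich surroundings.

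Other lists show whether this gradient was general. In NCI-H660 cells under the same dose of ORY-1001 no such rise was present, with 69.3% of the vehicle regions kept under 35% GC and 63.8% at 55% or more. The first later FOXA2 list of PC3 held 96.5% of the vehicle regions under 35% GC and 87.1% of those at 55% or more. With C12, whose comparison uses the same vehicle list, 11.7% were kept under 35% GC and 44% at 55% or more. The whole ORY-1001 list had a median GC content of 44% and the C12 list 41.5%, against 38% for the vehicle list and 37% for each later list. The part that differing recovery of AT-rich DNA between the libraries had in the PC3 classes was not tested, and with 1 library per arm library and treatment cannot be told apart.

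**Figure D3:**
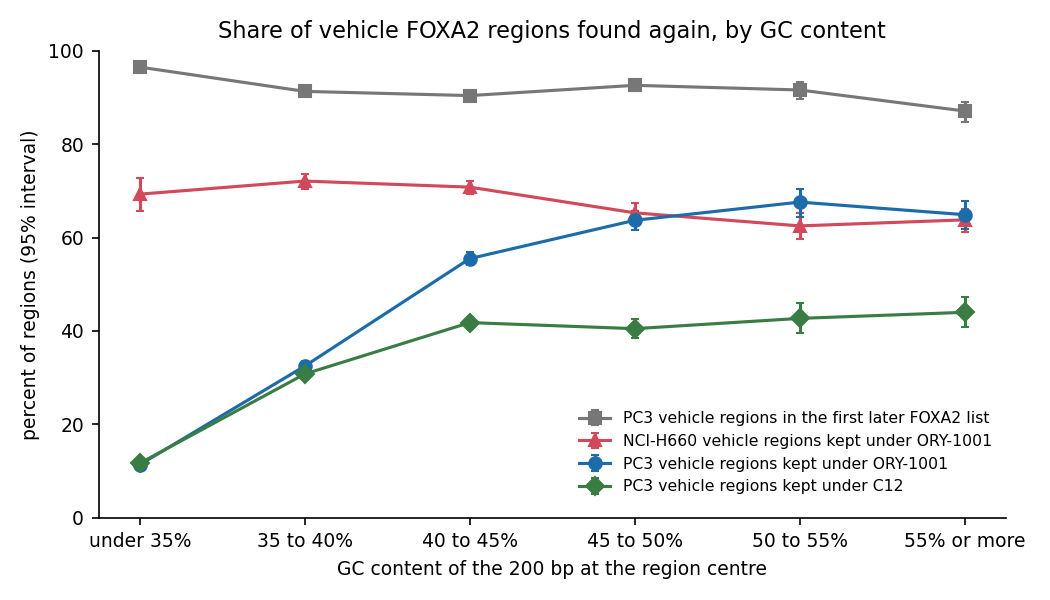
Percent of vehicle FOXA2 regions found again, by GC content of the 200 bp at their centre, for PC3 under ORY-1001 and C12 (the same vehicle list), NCI-H660 under ORY-1001 and the first later vehicle FOXA2 list of PC3. Bars are 95% intervals from counting error. The ORY-1001 line of PC3 rises from 11.4 to 67.6% and then ends at 64.9%, while the NCI-H660 and later-list lines do not rise.

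Because AT-rich regions were lost so much more often, the overlaps were compared again within classes of GC content. JUN-bound regions were kept more often in every class. Under 35% GC 23.4% of the regions with JUN were kept and 6.07% of those without, at 40 to 45% GC 67.6% and 41.2%, and at 55% or more 74.9% and 58.8%. H3K27ac split the regions likewise, with 18.9% against 4.99% under 35% GC and 68.2% against 40% at 55% or more. Standardised over score deciles and 5 strata of GC content together, a setting chosen after the GC gradient was seen, the difference between kept and lost regions was 22.1 points for JUN (19.8 to 24.5), 16.7 for H3K27ac (14.2 to 19.2), 13 for FOSL1 (11.1 to 15) and 2.71 for ATAC (0.712 to 4.71). The JUN difference was thus about as large as without GC, and the others were smaller.

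**Figure D4:**
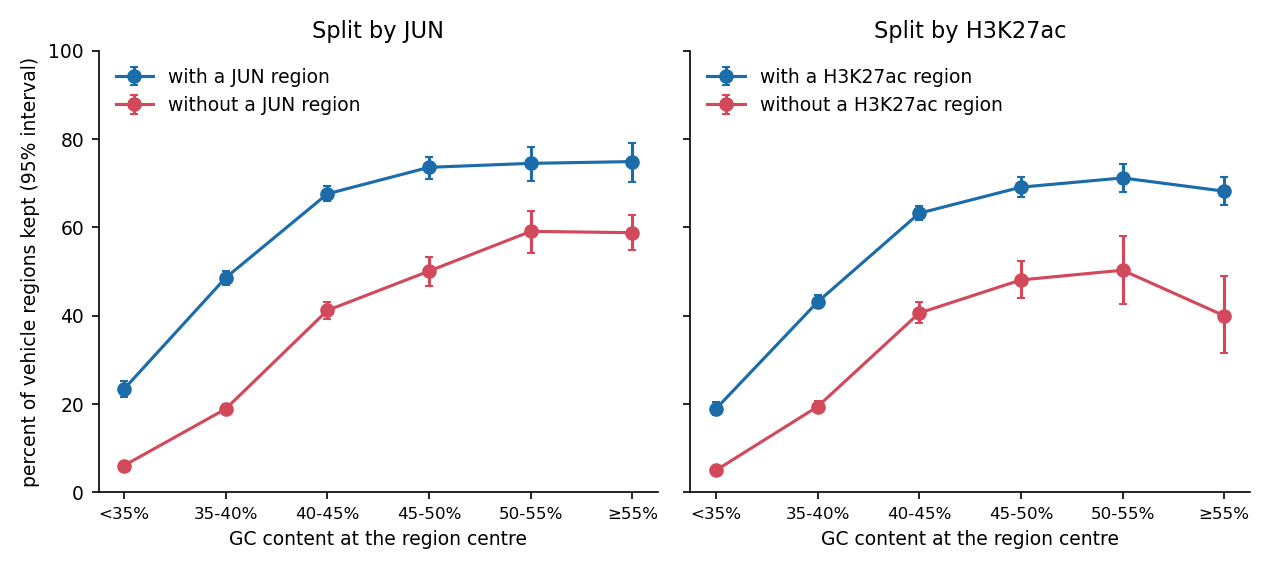
Percent of PC3 vehicle FOXA2 regions kept under ORY-1001, by GC content at their centre, for regions with and without a JUN region (left) and with and without an H3K27ac region (right). Bars are 95% intervals from counting error. In each of the 6 GC classes the regions with JUN or H3K27ac lie above those without.

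Annotation differed little between kept and lost regions. Introns held 40.7% of kept and 43.4% of lost regions, intergenic DNA 50.8% and 49.5%, and coding exons 2.28% and 1.93%. Promoters, taken as 1 kb on either side of the start of a protein-coding transcript, held 4.95% of kept (4.51 to 5.42%) and 3.41% of lost regions (3.13 to 3.71%), a standardised difference of 1.88 points (1.24 to 2.53). This order did not hold at equal GC content, where the difference was −1.66 points (−3.09 to −0.22). The median distance to a transcription start was 52020 bp for kept, 59956 bp for lost and 98696 bp for new regions. Of the new regions 57.3% were intergenic (55.9 to 58.7%) and 49.7% lay over 100 kb from any start.

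Kept and lost regions held the forkhead words at nearly the same share, and the direction of the difference depended on what was held equal. A forkhead word within 100 bp of the centre was present in 41.1% of kept and 40.9% of lost regions, against 9.29% of all PC3 ATAC regions and 6.93% and 7.88% of the windows 2 kb away from kept and lost regions. Regions with 1 forkhead word had a higher median vehicle score than regions with none (173 against 135), and the comparison at equal score turned against the kept regions, by −10.1 points (−11.5 to −8.69), and at equal score and GC content by −7.13 points (−9.62 to −4.63). Within GC classes, with the score not held equal, regions with the word were kept more often from 40% GC up, with 58.3% against 53.9% at 40 to 45% GC, 68.2% against 61.3% at 45 to 50%, 74.5% against 63.6% at 50 to 55% and 70.5% against 59.4% at 55% or more. Under 35% GC the shares were 11.8 and 11%, and at 35 to 40% they were 32.5 and 32.4%. Lost regions held the word more often outside ATAC (52%, 49.9 to 54.1%) than inside it (39%), whereas kept regions held it in 30.5% outside and 41.6% inside, and new regions in 7.01% outside and 21.7% inside. The AP-1 words were in 27.4% of kept and 25.6% of lost regions, against 16.8% of all ATAC regions. Their difference at equal score was −1.1 points (−2.42 to 0.216), and at equal score and GC content −2.62 points (−4.46 to −0.769). The JUN overlap thus separated the classes while the words JUN recognises hardly did. Neither kind of word contains the other.

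New regions resembled neither class. ATAC was overlapped by 1955 of the 4895 (39.9%), H3K27ac by 24.4%, JUN by 10.9% and a later FOXA2 list by 23.8%, and 1852 (37.8%) were found in no other list of the series, against 7 kept and 262 lost regions. The forkhead words were present in 12.9% of new regions (12 to 13.9%), and in 8.42% of the windows 2 kb away. Against the ORY-1001 regions that touched a vehicle region, at equal score, new regions were lower by 33.5 points for ATAC (−38.2 to −28.9) and by 30.2 points for H3K27ac (−35.3 to −25.2), although the top 2 deciles held only 19 and 6 new regions.

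The 1955 new regions in ATAC differed from the 2940 outside it. Those in ATAC had a median score of 51, H3K27ac in 50.7%, JUN in 24.7%, forkhead words in 21.7% and AP-1 words in 15.9%, the last close to the 16.8% of all ATAC regions. Those outside ATAC had a median score of 29, H3K27ac in 6.94%, JUN in 1.77%, forkhead words in 7.01% and AP-1 words in 2.93%, which is about the level of the windows 2 kb away (2.92%). The 1167 new regions that a later vehicle FOXA2 list also held were closest to ordinary FOXA2 sites, with ATAC in 88.3%, H3K27ac in 63.9% and forkhead words in 35.6%. In decile 1 of the ORY-1001 list 21.7% of new regions lay in ATAC, and in decile 6 86.3%.

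New regions were unevenly spread over the chromosomes. Chromosomes 8, 10 and 14 held 722, 644 and 396 of them, 36% of all new regions, while they held 16.9% of kept and 15.5% of lost regions. In density these were 5.05, 4.90 and 4.49 new regions per Mb, against 0.387 on chromosome 13 and 1.34 on chromosome 1. Outside ATAC the 3 chromosomes held 41.2% of the new regions, but among new regions that a later FOXA2 list also held they had 17.7%. The PC3 ATAC, H3K27ac and JUN lists placed 16.4, 15.1 and 16.4% of their regions on them. The kept share varied less, from 27.9% on chromosome 13 to 52.2% on chromosome 16 among the autosomes, and chromosomes 16, 19 and 22, with kept shares over 50%, also had the most GC-rich vehicle regions (medians 41, 44.8 and 43%).

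**Figure D5:**
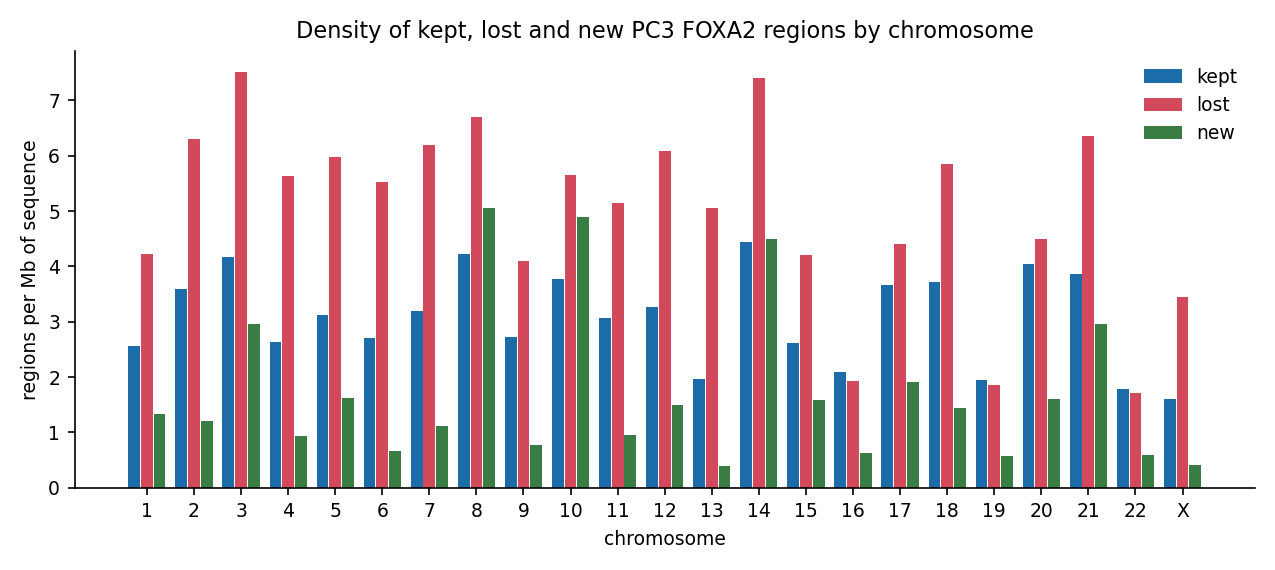
Kept, lost and new PC3 FOXA2 regions per Mb of known sequence for the autosomes and the X chromosome. The new regions reach 5.05 per Mb on chromosome 8, 4.90 on chromosome 10 and 4.49 on chromosome 14, where they outnumber the kept regions.

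The genes with the most regions of a class nearest to them are given as plain counts, and places found in at least 17 lists were left out of this ranking. Such counts take no account of gene length or spacing, and over all vehicle regions 36.8% were kept and 63.2% lost. CTNNA3 was among the leading genes of both the kept and the new class, and CSMD3 of both the lost and the new class. Kept regions were most often nearest to MYC, the growth-promoting transcription factor (24 kept, 10 lost, 3 new). Next came CTNNA3, an alpha-catenin gene (20 kept, 27 lost, 85 new), HAS2, a hyaluronan synthase gene (18 kept, 21 lost), and NRP1 (17 kept, 9 lost). The potassium channel gene KCNMA1 (17 kept, 18 lost) and ANKRD30A (16 kept, 21 lost, 26 new) followed. Then came SPIN4 (16 kept, 4 lost, 6 new) and the forkhead gene FOXP1 (15 kept, 14 lost). Of the 24 kept regions at MYC 20 overlapped JUN and 22 overlapped H3K27ac. Lost regions were most often nearest to CSMD3 (40 lost, 10 kept), the latrophilin gene ADGRL3 (38 and 14), CADM2 (36 and 11), the protocadherin gene PCDH9 (35 and 10), the glycogen branching enzyme gene GBE1 (35 and 5), LRFN5 (33 and 9), LRRC4C (31 and 13) and the axon guidance receptor gene ROBO1 (31 and 6). The lost regions at these 8 genes had median GC contents of 33 to 35.5%, and those kept at the 8 leading kept genes 36.5 to 43.5%.

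New regions were most often nearest to CTNNA3 (85), CSMD3 (78), PCDH15 (72), TPTE (54), ZWINT (48), RALYL (45), PRKG1 (38) and ADK (36), and 5 of these 8 genes lie on chromosome 10. Of the 85 new regions at CTNNA3 0 overlapped JUN and 23 overlapped ATAC, whereas 16 of its 20 kept regions overlapped JUN and all 20 overlapped ATAC. The median score of the new regions at these 8 genes was between 33 and 39.5.

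By genes rather than regions, 10562 of 19535 protein-coding genes (54.1%) had a vehicle region within 50 kb of the gene body, and 4274 of these (40.5%, 39.5 to 41.4%) kept none. A new region within 50 kb was found for 2666 genes (13.6%). The number of vehicle regions set much of this. Of the 4908 genes with 1 vehicle region 58.7% kept none, of the 1350 genes with 4 to 6 regions 12.4%, and of the 157 genes with at least 11 regions 0, although the share of regions kept was nearly the same in these groups (41.3, 38.4 and 36.6%).

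Regions near the genes that the study had examined by name were divided between the classes. A region counted if it lay within 50 kb of the gene body, whichever gene was nearest. None was matched to a position of the study's ChIP-qPCR. By that method the paper reports reduced FOXA2 binding at a panel of target sites when LSD1 was inhibited or silenced. CEP55, a cytokinesis gene, had 5 vehicle regions within 50 kb, with 3 kept, 2 lost and 1 new. The strongest of them, 17583 bp from FFAR4, scored 591 and was lost, while the next, in an intron of FFAR4, scored 510 under vehicle and 674 under ORY-1001. At CDK1, the mitotic cyclin-dependent kinase, the only vehicle region (score 300, 6799 bp from the gene) was lost, and 4 new regions with scores of 22 to 43 appeared. NDC80, a kinetochore gene, kept both of its regions, with scores of 614 and 142 at the intronic one and 520 and 44 at the one in SMCHD1. ERCC6L, a spindle checkpoint helicase gene, lost its only region (score 127), and INCENP had none. The lymphangiogenesis gene CCBE1 kept 1 of 4 regions, with scores of 423 under vehicle and 75 under ORY-1001.

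TP63, the master regulator of basal epithelial cells, kept 4 of 9 regions and had 5 new ones. The new ones scored between 18 and 92 and held no forkhead word, and only the strongest was in a later FOXA2 list. The strongest TP63 vehicle region, intronic, scored 1131 under vehicle and 841 under ORY-1001, and the second 716 and 274. The 5 lost TP63 regions scored between 44 and 162. PTHLH, the parathyroid hormone-like hormone gene, kept the strongest of its 3 regions (4139 under vehicle and 872 under ORY-1001) and had 4 new ones, 1 of them at a score of 428 outside ATAC. WNT7A, a WNT ligand gene, kept its only region (125 and 38), and so did FOSL1 (284 and 335). The FOSL1 region was nearest to C11orf68 and overlapped neither ATAC nor JUN. The receptor gene NOTCH1 lost its only region (score 127, GC content 58.5%).

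The forkhead sites in these regions are shown so that kept and lost sites can be read side by side. Each line gives 29 bases on the stated strand of hg19, and the capitals mark the word. A site is given where the strongest kept or the strongest lost region of a gene held a word, and weaker regions are not shown.
CEP55, lost, chr10:95308647-95308675, minus strand: cattgaccaaaTATTTACtttatttatgg
CDK1, lost, chr10:62561580-62561608, minus strand: aggaagtgcttTATTTACtctgatccaag
TP63, lost, chr3:189434054-189434082, plus strand: aaatatattttTATTTACtcttgagtgag
NDC80, kept, chr18:2592924-2592952, minus strand: tttgctttctcTGTTTACcaatagtgttt
CCBE1, kept, chr18:57357559-57357587, plus strand: gatgttatagcTGTTTACtttttcatccc
WNT7A, kept, chr3:13882704-13882732, plus strand: tccttttccctTATTTACttgttcagcgt
PTHLH, kept, chr12:28174861-28174889, plus strand: ggctgagataaTATTTACagaattagtca
FOSL1, kept, chr11:65680151-65680179, plus strand: tgcccagcccaTGTTTACttttactattt

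The 3 lost sites lay in regions with GC contents of 33.5, 32.5 and 28.5%, and the 5 kept sites in regions with 38.5, 31.5, 42.5, 33.5 and 47.5%. The words lay within 56 bp of the region centre in all 8. Kept and lost sites here overlapped in GC content.

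The gene lists below were chosen with earlier results of these data known, and their kept shares stand beside 36.8% over all vehicle regions. Regions within 50 kb of AP-1 subunit genes were kept in 8 of 12 cases (66.7%, 39.1 to 86.2%). JUN kept both of its regions, and JUNB, FOSL1, FOSL2 and BATF3 kept their only one, while FOS lost its only region and ATF2 lost 2 of 3. WNT pathway genes kept 18 of 31 regions (58.1%, 40.8 to 73.6%), with the most kept at the WNT5A receptor gene ROR1 (4 of 6), and the most lost at the transcription factor gene TCF7L2 (3 of 6). The AP-1 and WNT regions had median GC contents of 43.8 and 42%, above the 38% of all vehicle regions. Both intervals lie above 36.8% but are wide, and the lists are short. At equal score make-up the AP-1 share was 50.4% (33.7 to 67.1%), an interval that holds 36.8%. The WNT share was then 50.9% (38.9 to 62.9%). In lists this short the score is only partly equalised, because deciles without a region drop out. Such intervals also come out too narrow, because deciles with only kept or only lost regions add no width. Whether the WNT share at equal score lies above 36.8% is therefore not decided.

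Genes of the mesenchymal state and matrix kept 37 of 79 regions (46.8%, 36.2 to 57.7%), of which NRP1 alone gave 15 of its 22. The transcription factor genes ZEB1, ZEB2, SNAI1 and TWIST1 kept none of their 2, 3, 1 and 3 regions, but TWIST2 kept both of its 2. VIM kept none of 1, FN1 none of 2, CDH2 none of 3, COL4A1 none of 2 and PLAUR none of 1. The matrix and protease genes THBS1 and PLAU each kept 3 of 5. Of the 22 genes of this list with a vehicle region, 9 kept none and 3 kept all. Mitosis and kinetochore genes kept 17 of 40 regions (42.5%, 28.5 to 57.8%), led by NUF2 and CEP55 with 3 kept each. The YAP and TEAD list kept 19 of 45 (42.2%), with 5 of 7 at CRIM1 but 1 of 9 at TEAD1 and 1 of 7 at YAP1. Growth factors and receptors kept 16 of 43 (37.2%), with 5 of 8 at EGFR and 1 of 6 at MET.

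Basal epithelial genes kept 12 of 34 regions (35.3%, 21.5 to 52.1%), with 4 of 9 at TP63 and 2 of 11 at DST, which encodes dystonin. Cytokine and NF-kB feedback genes kept 7 of 22 (31.8%), with the most kept at the chemokine gene CXCL8 (2 of 5), while CXCL1 lost all 3 of its regions. The LSD1 and CoREST complex genes kept 2 of 10 (20%, 5.67 to 51%). KDM1A, the target of ORY-1001, lost both of its regions and RCOR1, the CoREST gene, all 3. The forkhead and hepatocyte factor genes kept 9 of 18 (50%, 29 to 71%), with 4 of 5 at FOXA1, 2 of 4 at FOXA2 itself and 3 of 7 at HNF4G. At equal score make-up the share for this list was 35.2% (25.4 to 44.9%), an interval that is too narrow as in the other short lists. The neuroendocrine genes, which mark another prostate lineage, had 5 regions, of which 2 were kept. At HOXB13, a homeobox gene of luminal prostate cells, 1 region of 4 was kept.

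Side by side, the PC3 comparison with C12 had 29.6% of vehicle regions kept (29.1 to 30.2%) and 14.9% of treated regions new. That comparison shares its vehicle list with the one described here and used another compound dose, so no comparison of the compounds is made. NCI-H660 under the same dose of ORY-1001 had 68.4% kept (67.6 to 69.2%) and 29.1% new. Of the 2670 PC3 vehicle regions that also lay in an NCI-H660 vehicle region, 1695 were kept in both lines, 271 only in PC3, 517 only in NCI-H660 and 187 in neither.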

How the data were processed

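Per the labels and the study's methods, the authors sheared crosslinked chromatin, precipitated it and built ThruPLEX libraries for ChIP-seq, aligned reads to hg19 with BWA 0.7.17-r1188, converted them with SAMtools 1.9 and called enriched regions with MACS2 2.1.4 (FastQC 0.11.9 is also named). The control library, the settings, any pooling and any shift of ATAC reads are not given in the sources used here. The deposited files are lists of intervals. In 20 of the 22 the authors deposited a score in column 5, whole numbers of at least 13 in the 2 lists compared, read here as 10 times −log10 q from that minimum. The remaining deposited lists hold intervals with no score (unit other) and served only to count in how many lists a place is found. Depth is unknown.

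Regions were compared with python 3.11.15 (numpy 2.4.6, pandas 2.3.3, pysam 0.24.0), and the scripts were tested on simulated regions. Shares carry Wilson 95% intervals. Differences were standardised over 10 score strata, with equal scores kept together, and over strata that held both classes. No chance test and no p-value was computed, because each arm had 1 list. Annotation was GENCODE 44 lifted to GRCh37, whose chromosome lengths hold every region. Motif words on either strand were counted up to 100 bp from a region's centre. Genes were linked to regions within 50 kb of the gene body.

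The members and lists were chosen with earlier results of these data known. Named were the 11 genes of the study's site list, the 8 genes nearest to the most regions of each class, the 5 highest-scoring regions of each class (kept and lost ones with ATAC, H3K27ac and JUN, new ones with ATAC, outside chromosome 8 and outside places found in at least 17 lists), and the genes with the most kept and lost regions of each gene list. Ranking of the 8 nearest genes also left out places found in at least 17 lists. Alternatives were a 50% reciprocal overlap, a 500 bp gap, a score of at least 30, equal list lengths, other strata, windows and motif words, and, chosen after seeing the data, GC strata and leaving out chromosomes 8, 10 and 14. Some members of these sets are not reported here.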

Additional observations from a re-analysis of the deposited data

How the results depend on the processing

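Under a 50% reciprocal overlap the kept share was 34.8% and the new share 39.1%, the kept-minus-lost difference was 18.9 points for H3K27ac and 21.7 for JUN, the new-minus-found difference was −26.7 for ATAC and −20.7 for H3K27ac, and 41.9% of genes kept no region. With the vehicle list cut to its 13732 highest-scoring regions, the length of the ORY-1001 list, the kept share was 53% and the new share 47.1%. In this setting the JUN difference was 20 points, the forkhead difference −7.66 points and the share of genes that kept none 30.3%. Without places found in at least 17 lists the kept share was 35.7%, the new share 36.7% and the JUN difference 21.9 points. With a score minimum of 30 on either side 25.9% of ORY-1001 regions were new. With no score strata the kept-minus-lost differences were 29.6 points for H3K27ac, 9.91 for ATAC, 32.1 for JUN and, with the sign changed, 0.253 for the forkhead words (−1.04 to 1.54), and the new-minus-found differences were −55.6 for ATAC and −51.5 for H3K27ac. Counting a feature only at the region centre gave 25.3 points for H3K27ac in kept against lost and −11.8 points in new against found regions. With 8 forkhead words in place of 2 the difference was −12.6 points, and with 10 kb around genes 45.7% kept none. With score deciles and 5 GC strata together, chosen after seeing the data, the kept-minus-lost differences were 16.7 points for H3K27ac, 2.71 for ATAC, −7.13 for the forkhead words and, with the sign changed, −1.66 for promoters, and the new-minus-found differences −38.3 for ATAC and −37.6 for H3K27ac. Without chromosomes 8, 10 and 14, also chosen after seeing the data, the new share was 29.9% and the new-minus-found ATAC difference −28.2 points. Causes of these shifts other than the construction of each setting were not tested. The remaining settings left each value within its counting interval.

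The depth behind both lists is unknown, and with 1 library per arm the treatment, the library and its recovery of AT-rich DNA cannot be told apart. No paired analysis was possible because each arm has 1 list.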

Other observations

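Vehicle regions with a kept neighbour were kept more often than those with a lost neighbour in all 5 classes of distance. A vehicle region whose nearest other vehicle region lay under 2 kb away and was kept was itself kept in 53.1% of 697 cases (49.4 to 56.8%), against 35.5% of 920 cases (32.5 to 38.7%) where that neighbour was lost. At 2 to 5 kb the shares were 44.7% (41.2 to 48.2%) and 39.1% (36.3 to 42.1%), with overlapping intervals, at 5 to 20 kb 43.4% and 35.7%, at 20 to 100 kb 36.4% and 33%, and over 100 kb 39.5% and 32.6%. At equal score make-up they were 49.4 and 37.7% under 2 kb, 42.9 and 39.9% at 2 to 5 kb and 42.8 and 35.7% over 100 kb, so the gap did not shrink steadily with distance. GC content was not equalised here, and places found in at least 17 lists were not left out. Regions that are each other's nearest neighbour count in both directions, so the cases are not independent and the intervals are too narrow.

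The vehicle regions that no later FOXA2 list held were kept more often than those that a later list held, 46.3% of 1690 (44 to 48.7%) against 36.1% of 22348 (35.5 to 36.7%), although their median score was 66 against 158. At equal score make-up the shares were 65.1% and 35%. Places found in at least 17 lists, which were 402 kept regions and 1 lost region, were not left out here. Their part in these differences was not tested. At equal score and GC content, 84.3% of kept and 93.6% of lost regions were in a later list.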
